A study of Rattus norvegicus with 18 samples.

Results

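The transcripts described are those of the 4 opioid receptors and of 3 precursors of endogenous opioid peptides in the prefrontal cortex (PFC) of rat pups. The receptors are Oprm1 (mu, ENSRNOG00000018191), Oprk1 (kappa, ENSRNOG00000007647), Oprd1 (delta, ENSRNOG00000010531) and Oprl1 (nociceptin, ENSRNOG00000016768). The precursors are Penk (proenkephalin, ENSRNOG00000008943), Pdyn (prodynorphin, ENSRNOG00000026036) and Pnoc (prepronociceptin, ENSRNOG00000014231). They were taken by gene symbol, which gave 7 of the 32623 genes listed, 1 row for each symbol.

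RNA-seq was performed on the PFC of 18 Sprague Dawley pups at post-natal day 14 (P14), 6 in each of 3 groups. Dams of saline control pups (SAL) received the saline vehicle in place of oxycodone. Dams of the postnatal group (PNO) were gavaged with oxycodone, an opioid analgesic, at 15 mg/kg/day only once the pups had been born. Dams of the in utero group (IUO) started at 10 mg/kg/day for 5 days, rose by 0.5 mg/kg/day for 10 days to 15 mg/kg/day, and were then mated and kept on oxycodone through pregnancy, birth and nursing. PNO and IUO pups therefore shared exposure through the nursing dam and differed in exposure before birth. The labels tie no pup to a litter, so pups of a group may share a dam, and the p-values given measure only the spread between these pups.

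Opioid receptors are G protein-coupled receptors that act through Gi/o proteins to lower cyclic AMP, open inwardly rectifying potassium channels and close voltage-gated calcium channels. Enkephalins, cut from proenkephalin, act mainly at delta and mu receptors, dynorphins from prodynorphin at kappa receptors, and nociceptin at its own receptor, which binds the classical opioid peptides poorly. Oxycodone acts mainly at the mu receptor. In the forebrain, Penk and Pdyn are best known as products of the projection neurons of the striatum, which lies beneath the frontal cortex, and they are also made by sets of cortical neurons.

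Libraries held between 18381819 and 26084780 estimated counts, and 15703 genes passed the filter on low counts, all 7 opioid genes among them. Of the 7 markers of cortical excitatory neurons examined, all were present in every pup, with a summed abundance between 589.4 and 1379 TPM, the deposited unit that corrects for depth and transcript length. SAL replicate 6 stood apart, with the lowest median correlation with the other libraries (0.956) and the highest mean transcript length, 1786 bases against a range down to 1420 bases. PNO replicate 1 and IUO replicate 5 were also high in this length, at 1712 and 1730 bases.

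Penk was the most abundant of the opioid transcripts and Oprm1 the least. On the TPM scale, the median over 18 pups was 81.6 for Penk, 21.7 for Pdyn, 16.8 for Oprl1, 10.2 for Pnoc, 2.21 for Oprk1, 1.25 for Oprd1 and 0.585 for Oprm1. The order of the mean levels was Penk, Pdyn, Oprl1, Pnoc, Oprk1, Oprd1, Oprm1 in each of the 3 groups. Penk exceeded Pdyn in 18 of 18 pups, by 2.10 ± 0.71 on the log2(TPM + 0.1) scale (SD, n = 18; two-sided exact sign-flip permutation test, adjusted p = 1.53e-05 over the 6 neighbouring pairs). Oprl1 exceeded Pnoc in 18 of 18 pups, by 0.80 ± 0.52, and Pnoc exceeded Oprk1 in 18 of 18 by 2.14 ± 0.84, the only neighbours whose ranges did not overlap. Oprk1 was above Oprd1 in 16 pups, by 0.98 ± 0.71, and Oprd1 above Oprm1 in 15, by 0.76 ± 0.63 (adjusted p = 0.000137 for each, same exact test). Pdyn and Oprl1 were the closest pair: Pdyn was higher in 11 of 18 pups, by 0.43 ± 0.82 (adjusted p = 0.0392, exact test). Leaving out single pups lost this last call in 8 of 18 cases (SAL replicates 1 and 3, PNO replicates 1 and 3, IUO replicates 1, 2, 4 and 6), with adjusted p from 0.0545 to 0.0782.

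**Figure D1:**
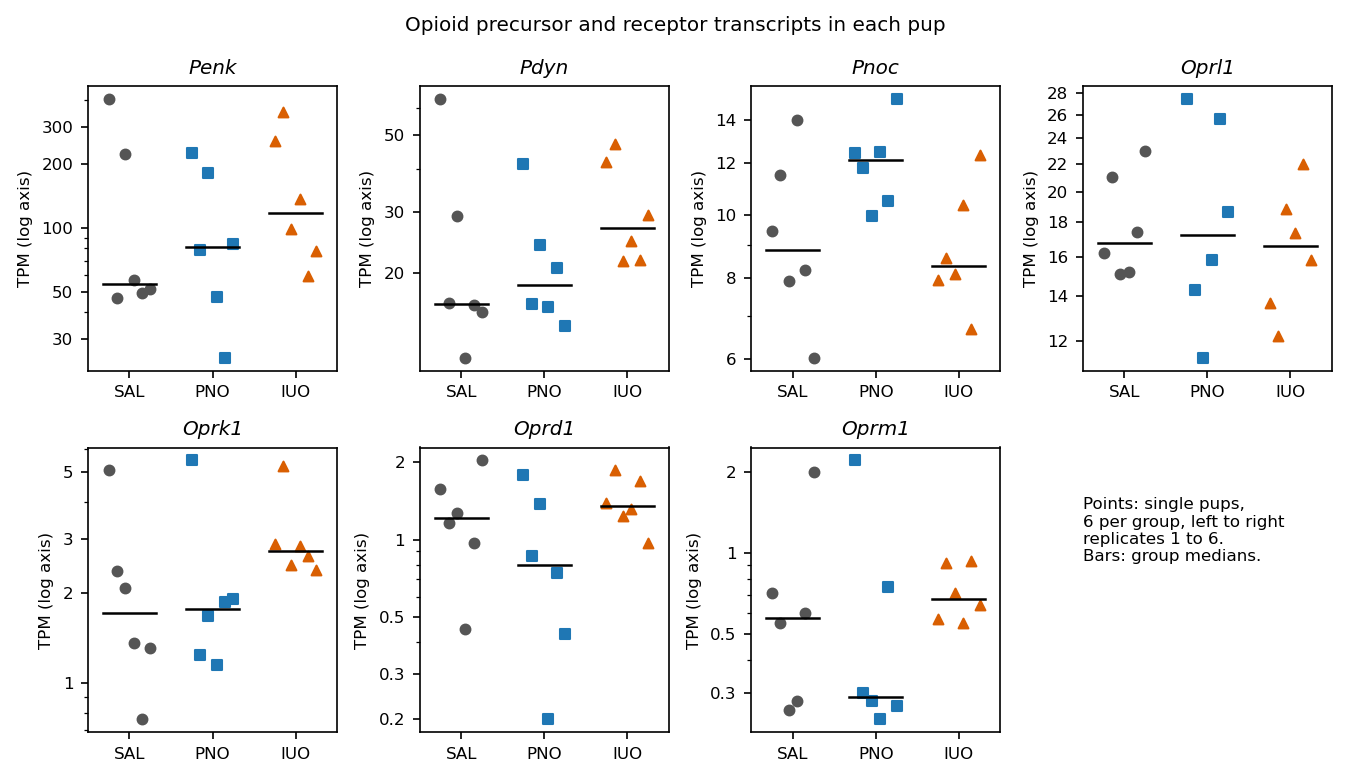
TPM of each opioid precursor and receptor gene (log axis) in each pup, by group; points are single pups, 6 per group, and bars are group medians. The groups overlapped for every gene, Penk ran from 24.3 to 406.7 TPM, and Oprm1 in SAL replicate 6 and PNO replicate 1 (2.01 and 2.21 TPM) lay above the 16 other pups.

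Among the receptors, the nociceptin receptor Oprl1 made up most of the transcript. Its share of the summed receptor TPM averaged 80.5% ± 7.75 (SD, n = 18) and ran from 60.2% to 90.9%. Oprk1 followed at 11.2% ± 5.65, then Oprd1 at 5.39% ± 2.29 and Oprm1 at 2.95% ± 1.57. The mean share of Oprl1 was 81.8% ± 7.14 in SAL, 84.0% ± 6.65 in PNO and 75.7% ± 8.03 in IUO (n = 6 each), and the groups overlapped.

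The values compared between groups are CPM, counts relative to the scaled library size, and differences are log2 fold changes of the first group over the second (PNO/SAL, IUO/SAL, IUO/PNO). Oprm1, the receptor at which oxycodone mainly acts, had 0.318, 0.586 and 2.06 CPM as lowest, median and highest in SAL, 0.293, 0.332 and 2.33 in PNO, and 0.626, 0.769 and 1.23 in IUO. The highest values in SAL and PNO were single pups, SAL replicate 6 and PNO replicate 1, and 4 of 6 PNO pups lay below every IUO pup. Log2 fold changes were -0.06 (SE 0.53) for PNO/SAL, 0.04 (SE 0.53) for IUO/SAL and 0.10 (SE 0.53) for IUO/PNO, with adjusted p from 0.941 to 0.999 in edgeR. The 95% interval of the IUO/PNO ratio ran from 0.494 to 2.33. Without SAL replicate 6 and PNO replicate 1, chosen after the data were seen, the IUO/PNO log2 fold change was 0.94. Counts were low for this gene, from 6 (95% exact Poisson interval 2.2 to 13.1, counting error only) to 62 (47.5 to 79.5). The within-group SD of log2 CPM was 0.81. Counting error alone gives an SD of 0.42 on log2 raw counts. That value is not a share of 0.81, since SDs do not add and log2 CPM carries a prior count of 2 that damps low counts.

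Oprk1, the dynorphin receptor, had 1.22, 2.90 and 7.68 CPM in SAL, 2.05, 2.88 and 7.75 in PNO, and 3.78, 4.14 and 8.56 in IUO. All 6 IUO pups were above the SAL and PNO medians, while the highest pup of each group stood apart from its others. The log2 fold change was 0.08 (SE 0.40) for PNO/SAL, 0.53 (SE 0.40, adjusted p = 0.901) for IUO/SAL and 0.45 (SE 0.40, adjusted p = 0.602) for IUO/PNO. Single pups moved these last differences, to 0.29 without IUO replicate 2 and 0.96 without SAL replicate 1 for IUO/SAL, and to 0.21 without IUO replicate 2 and 0.85 without PNO replicate 1 for IUO/PNO.

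Oprd1, a receptor for enkephalins, had 0.452, 1.01 and 1.44 CPM in SAL, 0.196, 0.715 and 1.35 in PNO, and 0.832, 1.13 and 1.62 in IUO. The PNO pups reached lowest, on 4 to 36 counts, and the IUO pups were the most even. The log2 fold change was -0.36 (SE 0.37, adjusted p = 0.914) for PNO/SAL, 0.23 (SE 0.36, adjusted p = 0.991) for IUO/SAL and 0.58 (SE 0.37, adjusted p = 0.460) for IUO/PNO. A limma-voom fit that weighted libraries by quality gave 1.18 for the last difference, with an adjusted p of 0.0380, in a fit that called 2028 genes (12.9%) for this comparison against 10 in edgeR, and over the alternatives adjusted p ran up to 0.676. That fit also gave -1.0 for Oprd1 in PNO/SAL (unadjusted p = 0.0156, adjusted p = 0.717) and 0.82 for Oprm1 in IUO/PNO (unadjusted p = 0.0267, adjusted p = 0.102). For Oprk1 in IUO/PNO it gave 0.66 (unadjusted p = 0.0492, adjusted p = 0.146), and its values for Pnoc are given below. Without PNO replicate 4 the edgeR difference of Oprd1 for IUO/PNO was 0.38, and without PNO replicate 1 it was 0.82.

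Oprl1 had 26.5, 32.8 and 38.1 CPM in SAL, 23.4, 34.7 and 44.5 in PNO, and 22.9, 29.7 and 34.8 in IUO. It was the steadiest of the 7 genes between pups. Its log2 fold change was 0.14 (SE 0.15) for PNO/SAL, -0.13 (SE 0.15) for IUO/SAL and -0.27 (SE 0.15, unadjusted p = 0.0790, adjusted p = 0.386) for IUO/PNO in edgeR, so that the 95% interval of the last ratio was 0.670 to 1.02.

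Penk had 34.7, 47.6 and 313.5 CPM in SAL, 18.5, 73.3 and 166.3 in PNO, and 43.5, 93.2 and 293.4 in IUO. The spread within each group, 6.75-fold to 9.03-fold from lowest to highest pup, was larger than the differences between group means of 109.7 ± 114.0, 89.7 ± 61.8 and 132.9 ± 98.0 CPM (SD, n = 6). Log2 fold changes were -0.29 (SE 0.64, adjusted p = 0.944) for PNO/SAL, 0.28 (SE 0.63, adjusted p = 0.996) for IUO/SAL and 0.57 (SE 0.64, adjusted p = 0.686) for IUO/PNO.

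Pdyn had 19.3, 24.2 and 90.7 CPM in SAL, 22.3, 28.6 and 54.9 in PNO, and 29.5, 40.2 and 72.7 in IUO. Every IUO pup was above the SAL and PNO medians, and the highest pup of all was SAL replicate 1. The log2 fold change was -0.13 (SE 0.36) for PNO/SAL, 0.32 (SE 0.36, adjusted p = 0.974) for IUO/SAL and 0.46 (SE 0.36, adjusted p = 0.564) for IUO/PNO. The 250 bases before the transcription start of Pdyn, from RefSeq on GRCr8 (chr3:137366504-137366753, minus strand), are shown because its level moved with that of Penk between pups, with a TATAAA match in capitals.
Pdyn: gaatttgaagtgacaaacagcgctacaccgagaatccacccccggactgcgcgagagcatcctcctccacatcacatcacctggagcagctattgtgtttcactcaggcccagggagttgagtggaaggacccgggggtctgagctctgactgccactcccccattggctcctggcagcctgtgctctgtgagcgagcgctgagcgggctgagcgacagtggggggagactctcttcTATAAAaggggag
The match begins 13 bases before the start, and the window is 59.2% G and C against a median of 51.2% over all promoters. TATAAA or its reverse complement was found in 12.9% of the 33469 promoter windows of this length. The letters TGACGTCA and GGGCGG, searched on both strands, were not in this window, and were present in 1.59% and 30.5% of all windows. RefSeq promoters were matched for 3 of the 7 genes (Pdyn, Oprm1, Oprd1).

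Pnoc, the precursor of nociceptin, had 6.18, 10.6 and 20.4 CPM in SAL, 12.1, 15.2 and 19.6 in PNO, and 7.41, 10.4 and 15.3 in IUO. The lowest PNO pup, at 12.1 CPM, was above 4 of the 6 IUO pups. The log2 fold change was 0.39 (SE 0.23, adjusted p = 0.912) for PNO/SAL and -0.12 (SE 0.23, adjusted p = 0.996) for IUO/SAL. For IUO/PNO it was -0.51 (SE 0.23, 95% interval -0.98 to -0.03) with an unadjusted p of 0.0376, and did not pass after adjustment in edgeR (adjusted p = 0.300). The limma-voom fit gave -0.53 for Pnoc in IUO/PNO (unadjusted p = 0.00753, adjusted p = 0.0539). In PNO/SAL that fit gave 0.47 (unadjusted p = 0.0268, adjusted p = 0.717). Over the alternatives the adjusted p of Pnoc for IUO/PNO ran from 0.0539 to 0.501. In bulk tissue, fewer cells of a type and less RNA per cell cannot be told apart.

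None of the 7 genes passed an adjusted p of 0.05 in edgeR for PNO/SAL (0 of 7, with 0% of all genes tested), IUO/SAL (0 of 7, 0%) or IUO/PNO (0 of 7, 0.0637%), nor in the test across the 3 groups (0 of 7, 0.00637%). At an unadjusted p under 0.05 the counts were 0 of 7 for PNO/SAL (4.5% of all genes), 0 of 7 for IUO/SAL (6.88%) and 1 of 7, Pnoc, for IUO/PNO (15.3%, with 9.14% of all genes lower as Pnoc was). Pnoc lost this call in edgeR when the striatal marker score described below was added (unadjusted p = 0.134). DESeq2 also called 0 of 7 in each comparison, beside 0.00637%, 0.312% and 2.78% of all genes for PNO/SAL, IUO/SAL and IUO/PNO. With limma-voom the counts were 0 of 7 (0% of all genes), 0 of 7 (0.274%) and 1 of 7, Oprd1, for IUO/PNO, where it called 12.9% of all genes. The groups overlapped for all 7 genes in each comparison, while 0.108%, 0.745% and 1.66% of all genes tested did not overlap. The estimates were mostly wide: for IUO/PNO the 95% intervals of the ratio ran from 0.586 to 3.74 for Penk, 0.809 to 2.33 for Pdyn and 0.506 to 0.978 for Pnoc. IUO/SAL and IUO/PNO share the IUO pups, and 5 of 7 genes had a positive estimate in each, against 48% and 49.9% of all genes; for PNO/SAL it was 3 of 7, against 50.8%.

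**Figure D2:**
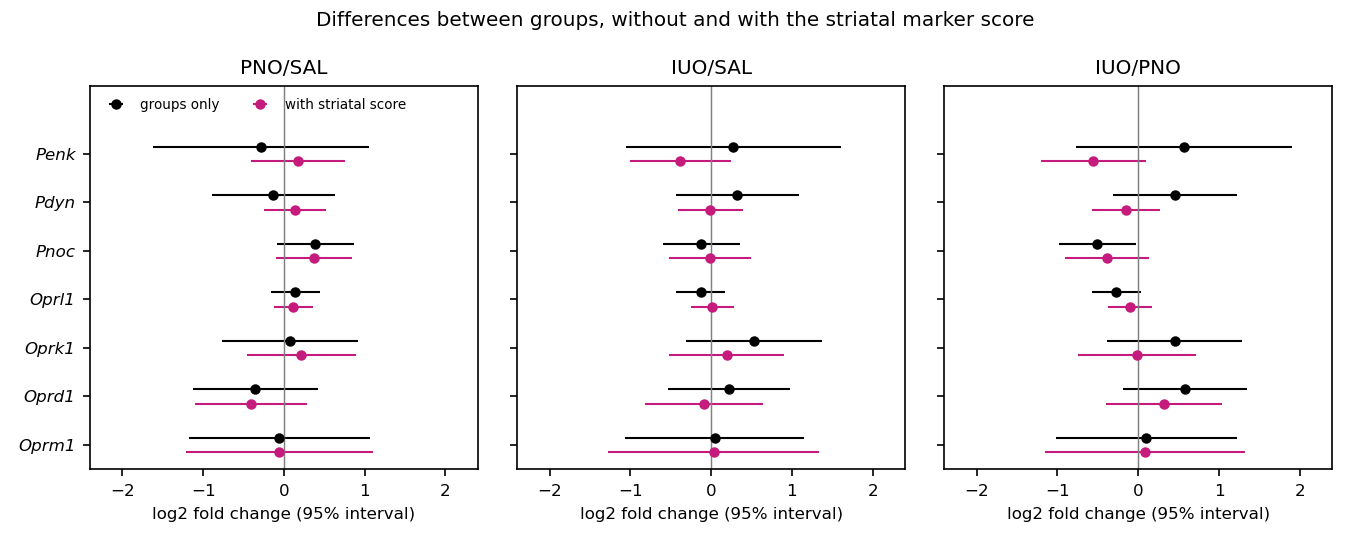
Log2 fold change of each opioid gene with its 95% interval in each comparison of 2 groups of 6 pups, from the model with groups only (black) and with the striatal marker score added (magenta). In the model with groups only, the interval of Pnoc for IUO/PNO was the only one that did not reach 0; adding the score turned the Penk estimate in this comparison from 0.57 to -0.55.

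Several of these genes varied more between pups of a group than most genes do. The within-group SD of log2 CPM was 1.21 for Penk, larger than that of 98% of the 15703 genes tested, whose median was 0.25. It was 0.81 for Oprm1 (larger than 94.6%), 0.69 for Oprk1 (91.6%), 0.64 for Pdyn (89.9%), 0.63 for Oprd1 (89.4%), 0.41 for Pnoc (73.9%) and 0.27 for Oprl1 (52.9%). Counting error alone, on log2 raw counts, gives an SD of 0.42 for Oprm1 and 0.36 for Oprd1 but only 0.04 for Penk.

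Penk, Pdyn and Oprk1 rose and fell together across pups. Pearson's r of log2 CPM over 18 pups was 0.84 for Penk with Pdyn (Spearman's rho 0.81, adjusted permutation p = 0.00042 and 0.00084 over 21 pairs), and r was 0.95 in SAL, 0.63 in PNO and 0.89 in IUO. For Oprk1 with Pdyn r was 0.81 (rho 0.81, adjusted permutation p = 0.00063 and 0.00084), and 0.80, 0.77 and 0.78 within SAL, PNO and IUO. For Oprk1 with Penk r was 0.71 (rho 0.71, adjusted permutation p = 0.00574 and 0.00982). Without the 2 pups farthest from the median of the gene on the x axis, r was 0.75, 0.80 and 0.65 for these pairs.

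Oprl1 ran against Penk, with r = -0.67 (rho -0.70, adjusted permutation p = 0.0105 and 0.00982), and r was -0.89, -0.41 and -0.93 in SAL, PNO and IUO. Oprd1 ran against Pnoc, with r = -0.67 (rho -0.63, adjusted permutation p = 0.0105 and 0.0261) and -0.87, -0.57 and -0.58 within the groups. Without the 2 farthest pups r was -0.57 and -0.60. The 6th pair past the threshold on r, Oprm1 with Oprd1 (r = 0.58, rho 0.52, adjusted permutation p = 0.0442 and 0.0778), lost this call in 14 of 18 cases when single pups were left out (all but SAL replicate 3 and PNO replicates 2, 3 and 5), with adjusted p from 0.0502 to 0.0873, and had adjusted permutation p = 0.0806 after centring on the group means (r = 0.53). Oprl1 with Pdyn passed on rho only (r = -0.52, rho -0.59, adjusted permutation p = 0.0666 and 0.0452), with r of -0.78, 0.07 and -0.99 in SAL, PNO and IUO. Without SAL replicate 6 and PNO replicate 1, 13 of 21 pairs passed in place of 6, and on log2(TPM + 0.1) Oprl1 with Penk was -0.47 (adjusted permutation p = 0.104). On that TPM scale 8 of 21 pairs passed, 3 of them pairs that did not pass on log2 CPM: Oprm1 with Oprl1 was 0.62 (adjusted permutation p = 0.0207), Oprk1 with Oprd1 0.55 (0.0442) and Oprd1 with Pdyn 0.59 (0.0293).

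**Figure D3:**
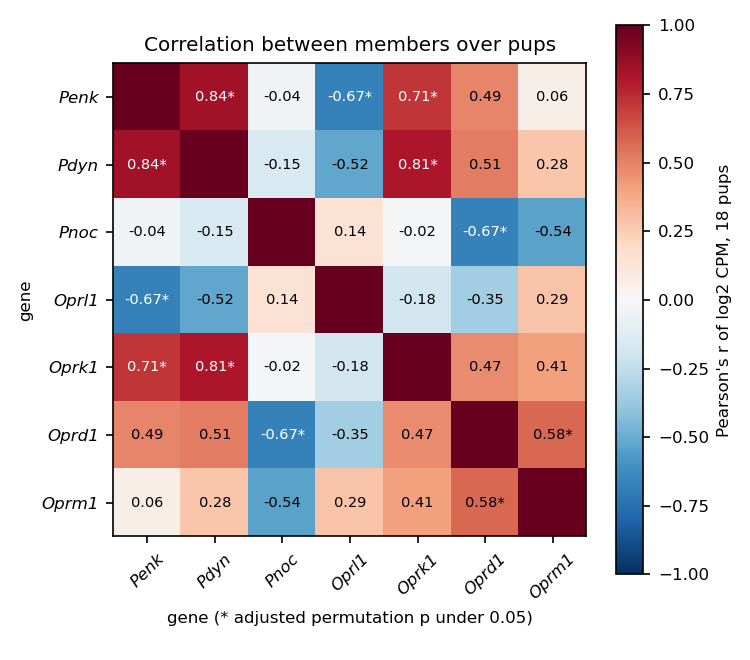
Pearson's r of log2 CPM over 18 pups for each of the 21 pairs of opioid genes; red is positive, blue is negative, and an asterisk marks an adjusted permutation p under 0.05. Penk, Pdyn and Oprk1 form the block of positive values (0.71 to 0.84), and Oprl1 with Penk and Pnoc with Oprd1 are the pairs past the threshold with negative r (-0.67 each).

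Penk and Pdyn also moved with the markers of striatal medium spiny neurons. Of 13 markers, among them Adora2a, Drd1, Drd2, Rgs9, Ppp1r1b, Pde10a, Syndig1l, Tac1 and Adcy5, all were measured and none was at 0 in any pup. Their summed TPM ran from 204.2 to 1532 in SAL (median 389.9), from 225.1 to 1158 in PNO (325.3) and from 483.6 to 1794 in IUO (770.4). The difference in mean sum between IUO and PNO did not pass (two-sided exact permutation test, p = 0.102, adjusted p = 0.701 over 36 tests), and all 13 markers had a higher estimate in IUO than in PNO (median log2 fold change 0.85, 0 past the adjusted threshold). The score formed by their mean log2 CPM correlated with Penk at r = 0.89 (rho 0.88) and with Pdyn at r = 0.88 (rho 0.92), each with an adjusted permutation p of 0.00028 over 56 relations, from 1e-05, the smallest p that 100000 resamples give. Inside the SAL, PNO and IUO groups the values were 0.94, 0.79 and 0.97 for Penk and 0.93, 0.78 and 0.85 for Pdyn, and without the 2 farthest pups 0.84 for both.

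**Figure D4:**
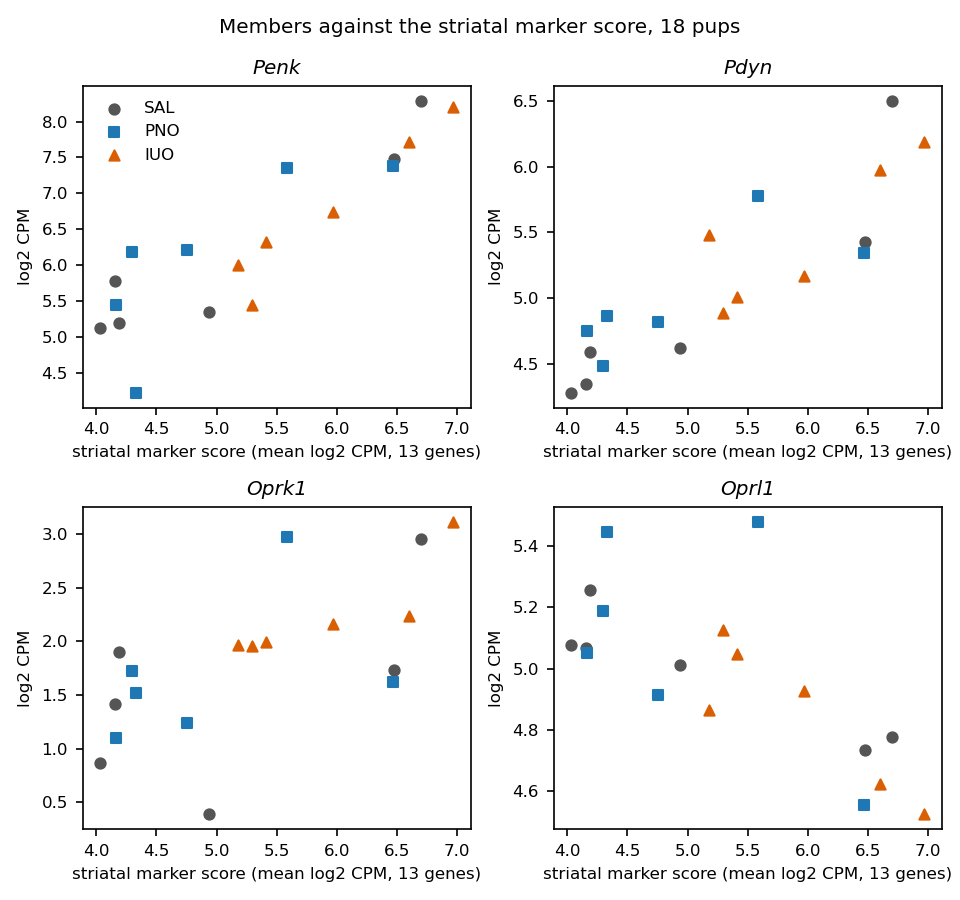
Log2 CPM of Penk, Pdyn, Oprk1 and Oprl1 (vertical axes) against the striatal marker score, the mean log2 CPM of 13 genes (horizontal axes), with 1 point for each of 18 pups. Penk and Pdyn rise with the score (r = 0.89 and 0.88), Oprk1 rises with more scatter (0.66) and Oprl1 falls (-0.72).

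The receptors divided in their relation to this score. Oprl1 fell with it (r = -0.72, rho -0.68, adjusted permutation p = 0.00616 and 0.0236), Oprk1 rose (r = 0.66, rho 0.75, 0.0184 and 0.00877) and Oprd1 had r = 0.64 (rho 0.58, 0.0184 and 0.0717), while r was 0.09 for Oprm1 and -0.30 for Pnoc. Without the 2 farthest pups r was -0.64, 0.48 and 0.57 for Oprl1, Oprk1 and Oprd1. With the score as a covariate in edgeR, the SE of the Penk differences fell from 0.64 to 0.28 for PNO/SAL and to 0.31 for IUO/PNO. The estimates became 0.17, -0.38 and -0.55 for Penk in PNO/SAL, IUO/SAL and IUO/PNO (adjusted p = 0.904, 0.838 and 0.371). For Pdyn they became 0.14, -0.01 and -0.15, and for Oprk1 in IUO/PNO -0.02. Of the 56 relations of an opioid gene with a marker score or library measure, 15 passed on r. Penk also ran against the cortical excitatory markers (r = -0.64, rho -0.55, adjusted permutation p = 0.0184 and 0.0838), as did Oprk1 (r = -0.58, rho -0.33, 0.0483 and 0.385). With the choroid plexus markers Penk rose (r = 0.64, rho 0.59, 0.0224 and 0.0666), and r was 0.88, 0.94 and 0.23 in SAL, PNO and IUO. Oprl1 ran with the markers of the claustrum (r = 0.62, rho 0.70, 0.0232 and 0.0217), and r was 0.76, 0.95 and 0.10 in these groups. Choroid plexus markers summed to between 4.21 and 2692 TPM over the pups, and none of the 36 tests of summed markers of 12 cell types or regions between groups passed after adjustment (exact permutation, 3 at an unadjusted p under 0.05: oligodendrocytes for IUO/PNO, and red blood cells, higher in IUO, for IUO/SAL and IUO/PNO). Of the single marker genes, Pvalb, an interneuron marker, passed in edgeR for IUO/PNO (log2 fold change -2.34, SE 0.41, adjusted p = 0.0356), and Tmem119, a microglial marker, had -1.32 (SE 0.24, adjusted p = 0.0524); both were named after their values were seen. In the same comparison 5 of 10 interneuron markers were higher and 5 lower (median 0.07, from -2.34 to 0.58), and 4 of 5 microglial markers were higher and 1 lower (median 0.02, from -1.32 to 0.08). No other marker of either list had an unadjusted p under 0.05 in edgeR for IUO/PNO, and the relation of Pvalb and Tmem119 to the Pnoc difference in this comparison was not tested. The part of striatal marker content in the levels of these genes was not tested beyond these values.

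Oprm1 and Pnoc moved instead with the mean transcript length of the library, a count-weighted harmonic mean of effective length over all genes, and in opposite directions. Pearson's r with this length was 0.76 for Oprm1 (rho 0.68) and -0.77 for Pnoc (rho -0.68), with an adjusted permutation p of 0.00426 for each r and 0.0239 and 0.0236 for each rho. For Pnoc r was -0.93, -0.64 and -0.72 within SAL, PNO and IUO, but for Oprm1 it was 0.84 and 0.95 in SAL and PNO and -0.52 in IUO, a difference between groups that was not tested. Without the 2 farthest pups r was 0.67 and -0.60. The share of counts on mitochondrial genes also correlated with Pnoc (r = 0.75, rho 0.62, adjusted permutation p = 0.00426 and 0.0499), with Oprm1 (r = -0.65, rho -0.56, 0.0184 and 0.0838) and with Oprd1 (r = -0.57, rho -0.46, 0.0489 and 0.178). With the length as a covariate in edgeR, an alternative added after the data were seen, the IUO/PNO difference of Pnoc was -0.36 (SE 0.15, unadjusted p = 0.0286, adjusted p = 0.228) and that of Oprl1 -0.34 (SE 0.12, unadjusted p = 0.0138, adjusted p = 0.171). With the striatal score, a planned covariate, they were -0.39 (SE 0.24, unadjusted p = 0.134, adjusted p = 0.433) and -0.10 (SE 0.13, unadjusted p = 0.442, adjusted p = 0.699). The summed TPM of 6 mature oligodendrocyte markers had medians of 6590 in PNO and 2061 in IUO (exact permutation p = 0.0108, adjusted p = 0.390). The mean log2 CPM of these markers correlated with Pnoc at r = 0.66 (rho 0.61, adjusted permutation p = 0.0184 and 0.0499). Within SAL, PNO and IUO this r was 0.81, 0.33 and 0.18. The part of the mitochondrial share and of oligodendrocyte content in the Pnoc values was not tested.

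**Figure D5:**
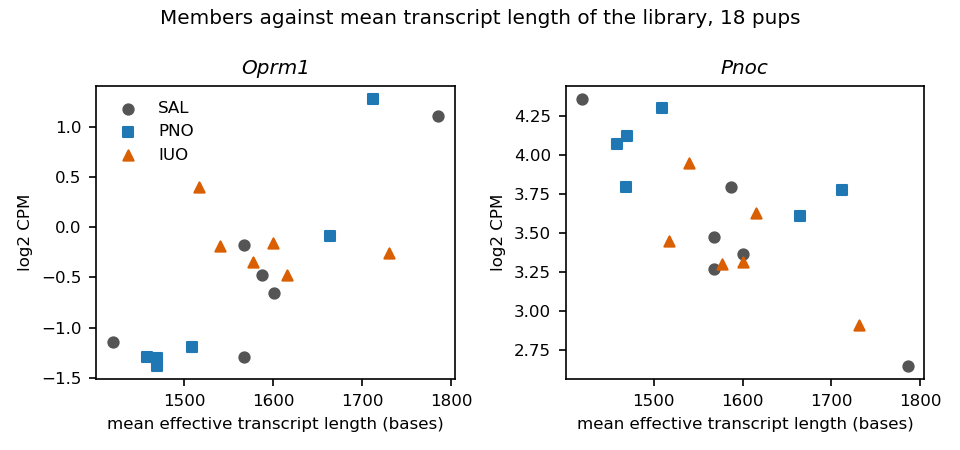
Log2 CPM of Oprm1 and Pnoc (vertical axes) against the mean effective transcript length of each library in bases (horizontal axes), with 1 point for each of 18 pups. Oprm1 rises with length in SAL and PNO pups but not in IUO pups (r = 0.84, 0.95 and -0.52, a difference that was not tested), and Pnoc falls with it in each group (-0.93, -0.64 and -0.72).

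The genes around the receptors and precursors were examined as lists of 46 in all, all of which were tested. None passed an adjusted p of 0.05 in edgeR in any comparison. At an unadjusted p under 0.05 the count was 0 of 46 for PNO/SAL, 3 for IUO/SAL (6.52%, beside 6.88% of all genes) and 5 for IUO/PNO (10.9%, beside 15.3%), and the median log2 fold changes were -0.02, 0.03 and 0.03. Of the 5 processing genes, Cpe, the carboxypeptidase that trims peptide precursors, was the most abundant at 1475 ± 113 TPM (SD, n = 18), and Scg5, the chaperone of the convertase PC2, had a log2 fold change of -0.46 for IUO/PNO (SE 0.15, unadjusted p = 0.00670, adjusted p = 0.168). Among the 8 peptidases, Npepps was highest at 74.2 ± 9.11 TPM and none passed even unadjusted.

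Among proteins that bind opioids or their peptides, or serve as further precursor (4 genes), Ogfr was highest at 79.3 ± 7.39 TPM. Of 4 genes of receptor sorting, Gpm6a was highest at 1097 ± 131 TPM, and Rtp4, a chaperone of opioid receptor dimers, had log2 fold changes of -0.58 for IUO/SAL and -0.64 for IUO/PNO (adjusted p = 0.556 and 0.166). For the 5 Gi/o proteins, led by Gnao1 at 304.1 ± 70.2 TPM, the 1 with an unadjusted p under 0.05 was Gnai2, with 0.17 for IUO/PNO (adjusted p = 0.222). Of 9 effectors, Adcy5 was highest at 52.6 ± 22.9 TPM and Kcnj5, a potassium channel subunit, had -0.36 for IUO/PNO (adjusted p = 0.245). Of 11 desensitisation genes, Rgs4 was highest at 239.7 ± 54.6 TPM and Rgs14 had 0.52 for IUO/SAL (adjusted p = 0.721). Adcy5 and Rgs9 stand both in these lists and among the striatal markers.

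The genes whose log2 CPM followed each opioid gene most closely over the 18 pups are given as a description. For Penk they were Entpd3 (r = 0.95), Syndig1l (0.94) and Rgs9 (0.93), and for Pdyn Drd1 (0.89), Lhx8 (0.89) and Gpr52 (0.89). Syndig1l, Rgs9 and Drd1 are among the striatal markers above. For Oprk1 they were Scml4, Ecel1 and Six3 (0.89, 0.88 and 0.88), for Oprd1 Noc3l, Haus3 and Ankrd63 (0.89, 0.86 and 0.85), and for Oprl1 Cds1, Aff2 and Edil3 (0.90, 0.89 and 0.88). For Oprm1 they were Mdm4, Cep85l and Igf2r (0.93, 0.93 and 0.92), and for Pnoc Ociad1, Coprs and Fbxo2 (0.94, 0.93 and 0.92).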

How the data were processed

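RNA-seq libraries were made from total RNA of the PFC of single pups with the TruSeq V2 kit and sequenced as single reads on 1 flow cell. For each gene the authors deposited estimated counts (expected_count), TPM and FPKM; the aligner, quantifier and genome build are not given in the sources used here. Expected counts were rounded to whole numbers (within 1e-09 of a count, 90.1% to 91.1% of values per library already were, zeros included, and 83.4% to 84.5% of values above 0), genes were filtered with filterByExpr, and edgeR 4.0.16 (R 4.3.3) quasi-likelihood tests with TMM scaling were fitted on all 18 pups in 1 model of 3 groups, two-sided, with Benjamini-Hochberg adjustment over 15703 genes; the script was tested on simulated data. SEs are |log2 fold change|/√F. Levels of different genes were compared on the deposited TPM, with a pseudocount of 0.1. The summed deposited FPKM gave the mean transcript length of a library. Single values were tested by exact permutation (924 splits, smallest p 0.00216), and correlations by 100000 permutations. The rule for named genes took the 7 members, pathway genes with an unadjusted p under 0.05, the highest-TPM gene of each pathway list and the 3 genes most like each member. A gene that this rule names is not reported here. The members and lists were chosen with earlier results of these data known. Alternatives were DESeq2 1.42.0, limma 3.58.1 on TPM and with voom, other scalings and filters, marker covariates, a replicate block and single pups left out. No pair of libraries was a duplicate (45 pairs within groups, lowest chi-square per degree of freedom 11.1).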

Additional observations from a re-analysis of the deposited data

Results flagged for a closer look

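Of 57 groups of 6 pups examined for a single value far from the others, 3 stood out, and chance alone gives about 1 in 20. Oprm1 in IUO replicate 2 was at 0.401 log2 CPM, and the next highest IUO pup was at -0.152. Oprk1 in PNO replicate 1 was at 2.97 log2 CPM against 1.72 for the next, and Oprk1 in IUO replicate 2 at 3.11 against 2.23.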

How the results depend on the processing

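In no alternative run did any of the 7 genes pass the adjusted threshold for PNO/SAL or IUO/SAL; for IUO/PNO the count was 1 with limma-voom and 0 otherwise (the minimum count of 50 removed Oprm1 and Oprd1). The count over all genes for IUO/PNO went from 10 to 436 with DESeq2, 2028 with limma-voom, 72 on the 12 pups alone, 132 with transcript length as covariate, 1 with the striatal score, 6 with the replicate block, 16 with the minimum count of 50 or upper-quartile factors, 19 unscaled and 222 without SAL replicate 6 and PNO replicate 1, and with single pups left out it ran from 1 (PNO replicate 4 or 6, or IUO replicate 3) to 95 (PNO replicate 5); for IUO/SAL it went from 0 to 49 with DESeq2, 43 with limma-voom and 7 with the length. Same-numbered pups were not taken as pairs, since r was over 0.1 in 4, 1 and 3 of 6 for PNO/SAL, IUO/SAL and IUO/PNO and not in all (mean r 0.232, -0.0266 and 0.0626, own number best in 2, 0 and 2), and the block called 0 members, turning Pdyn for PNO/SAL to 0.012. The striatal score turned Penk and Pdyn for PNO/SAL to 0.17 and 0.14, Oprd1, Oprl1, Penk and Pdyn for IUO/SAL to -0.085, 0.017, -0.38 and -0.012, and Oprk1, Penk and Pdyn for IUO/PNO to -0.018, -0.55 and -0.15. Without a change of sign it took, among others, Oprk1 and Pnoc for IUO/SAL to 0.20 and -0.012, and Oprd1 and Oprl1 for IUO/PNO to 0.32 and -0.10. For PNO/SAL, Oprm1 became 0.11 with transcript length and 0.0073 with an interneuron score, Oprk1 -0.24 with limma-voom and Pdyn 0.048 as a plain difference of log2 CPM.

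Leaving out pups (singly, or SAL replicate 6 and PNO replicate 1 together) gave ranges for PNO/SAL of -0.90 to 0.51 (Oprm1), -0.47 to 0.51 (Oprk1), -0.74 to 0.38 (Penk) and -0.47 to 0.36 (Pdyn), for IUO/SAL of -0.12 to 0.61 (Oprm1), -0.12 to 0.94 (Penk) and -0.26 to 0.10 (Pnoc), and for IUO/PNO of -0.060 to 0.94 (Oprm1). Without a change of sign, single pups moved IUO/SAL from 0.29 to 0.96 (Oprk1), 0.14 to 0.81 (Pdyn) and 0.08 to 0.36 (Oprd1), and IUO/PNO from 0.21 to 0.85 (Oprk1), 0.16 to 0.84 (Penk), 0.27 to 0.65 (Pdyn) and 0.38 to 0.82 (Oprd1). The lowest of these came without IUO replicate 2 (SAL or PNO replicate 4 for Oprd1). For PNO/SAL the range was -0.60 to -0.16 for Oprd1, 0.06 to 0.23 for Oprl1 and 0.25 to 0.61 for Pnoc. Oprl1 ran from -0.20 to -0.07 for IUO/SAL and from -0.36 to -0.20 for IUO/PNO, and Pnoc from -0.63 to -0.42 for IUO/PNO. The signs of Penk and Pdyn for PNO/SAL turned without SAL replicate 1, and that of Penk for IUO/SAL without IUO replicate 2. Pairs past the threshold numbered 5 to 13. Correlations that changed sign were Oprk1 with Oprl1 (-0.445 to 0.00286), Oprk1 with Pnoc (-0.300 to 0.0504), Oprm1 with Penk (-0.0690 to 0.219), Oprm1 with Oprl1 (-0.0272 to 0.450) and Penk with Pnoc (-0.236 to 0.0178). Centred on group means, Oprm1 with Penk was -0.00123, Oprk1 with Pnoc 0.0898, Oprl1 with Pnoc -0.0511 and Penk with Pnoc 0.0571; on log2(TPM + 0.1), Oprk1 with Oprl1 was 0.0813, Oprd1 with Oprl1 0.102 and Oprl1 with Pnoc -0.0465. As mean log2 in place of summed TPM, marker differences turned for PNO/SAL in cortical (-0.0912), claustrum (0.0166), interneuron (-0.249) and hypothalamic lists (0.497), for IUO/SAL in the claustrum list (0.0427) and for IUO/PNO in interneuron (0.148), microglia (-0.128) and endothelium lists (0.103). The cause of these changes was not tested. Counts of at most 62 for Oprm1 and 36 for Oprd1 limit what could be seen of them.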
